A study of Homo sapiens with 6 samples.

Results

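The proteins of the cytosolic ribosome are encoded by genes named RPL for the large subunit and RPS for the small subunit. Protein-coding genes with such a name were taken by symbol, which gave 85 genes, 53 RPL and 32 RPS, of 78686 rows in the table and 20021 protein-coding rows. Pseudogenes, Y-linked copies, the RPS6K kinases, the mitochondrial MRPL and MRPS genes and fused readthrough genes were left out. So were RPS19BP1 and RPSA2, whose symbols do not have the form that was searched for. In all, 17 protein-coding rows whose symbols begin with RPL or RPS were removed. The RNA came from THP-1, a monocyte-like cell line started from a human leukaemia, stably transduced either with a control vector without insert (EV) or with one that drives overexpression of PTX4, a long pentraxin gene (PTX4-OE). Each construct had 3 biological replicates numbered 1 to 3, all 6 libraries carried the same batch label, and the promoter of the construct, the number of transductions or clones and the meaning of a replicate number are not given in the sources used here. If a group is 1 transduced pool, its replicates measure the spread between cultures of that pool.

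A ribosome holds a single copy of nearly every one of these proteins, so cells make them in matched amounts, and their mRNAs are among the most abundant in growing cells. Most of these mRNAs start with a C followed by an unbroken run of C and T, the terminal oligopyrimidine (TOP) motif, through which mTORC1 and the RNA-binding protein LARP1 adjust their translation and stability. A few of the genes have a paralogue that can take their place in the ribosome or that acts elsewhere, such as RPL22L1 for RPL22, RPL39L for RPL39 and RPS27L for RPS27.

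The starts of 12 of these genes are shown because most members with a RefSeq start hold this run and several genes that stand apart in the results do not. Each line holds 15 bases before and 15 bases from the RefSeq start (GRCh38.p14), 5′ to 3′ on the gene's strand. Capitals mark a run of C and T that begins at the start base with a C and holds at least 4 further C or T. RPL31 is shown at chr2:101002274-101002303 (plus strand), RPL26 at chr17:8383179-8383208 (minus), RPL36A at chrX:101390996-101391025 (plus), RPL39 at chrX:119791616-119791645 (minus), RPS27 at chr1:153990747-153990776 (plus) and RPS21 at chr20:62387088-62387117 (plus). RPL22L1 is shown at chr3:170870181-170870210 (minus), RPS26 at chr12:56041903-56041932 (plus), RPL7L1 at chr6:42879601-42879630 (plus), RPL26L1 at chr5:172958714-172958743 (plus), RPL36AL at chr14:49620612-49620641 (minus) and RPS27L at chr15:63157463-63157492 (minus).
RPL31: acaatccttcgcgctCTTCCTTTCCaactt
RPL26: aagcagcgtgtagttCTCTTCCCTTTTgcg
RPL36A: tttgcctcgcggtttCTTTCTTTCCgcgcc
RPL39: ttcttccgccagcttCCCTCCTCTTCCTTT
RPS27: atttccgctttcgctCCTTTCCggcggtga
RPS21: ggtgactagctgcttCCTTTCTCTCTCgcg
RPL22L1: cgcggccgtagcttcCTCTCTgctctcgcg
RPS26: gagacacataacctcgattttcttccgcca
RPL7L1: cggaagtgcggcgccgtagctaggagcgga
RPL26L1: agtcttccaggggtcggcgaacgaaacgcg
RPL36AL: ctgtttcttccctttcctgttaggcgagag
RPS27L: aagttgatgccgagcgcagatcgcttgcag

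A start base C followed by at least 4 further C or T, read on the gene's strand, was present at one or more RefSeq starts of 47 of the 68 genes with an entry in the promoter table (69.1%). The same pattern was present in 4.07% of all 35116 windows of that table and for 5.14% of its gene symbols. A further 17 genes have no entry there. In the lines above RPL31, RPL26, RPL36A, RPL39, RPS27 and RPS21 hold runs of 7 to 15 bases. Genes without the pattern whose starts are not printed include RPS28, RPS29, RPL4, RPL9 and RPL32, so the printed lines are no even sample. The paralogues RPL26L1, RPL36AL and RPS27L do not hold the pattern where their partners RPL26, RPL36A and RPS27 do. The start base of RPL36AL is a C inside a longer stretch of C and T that begins before it. RPL36AL therefore misses the pattern only by the length counted from that base. RPL22L1 differs from these paralogues in starting with a run of 6 bases. The absence of the run at the RefSeq start of RPS26 says only that these letters are not at that base.

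Depth ranged from 29670641 to 37718207 expected counts per library. PTX4 had 0, 3 and 4 counts in EV replicates 1 to 3, and 24633, 14398 and 15782 in the PTX4-OE replicates, so the libraries carry the transcript their labels name. Of 8 monocytic markers all 8 were expressed above the filter on low counts, with a summed level of 623 to 714 TPM (transcript level scaled for length and library size) in EV and 588 to 746 TPM in PTX4-OE. Of 10 markers of other cell types 3 passed the filter, and EPCAM, MS4A1, COL1A2 and CD3E were at 0 in every library. Mitochondrially encoded genes held 4.75, 5.91 and 5.51% of counts in EV and 2.79, 5.39 and 4.97% in PTX4-OE, so PTX4-OE replicate 1 lay below the other libraries.

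The 85 ribosomal protein genes together held 8.16, 8.50 and 10.07% of all counts in EV replicates 1, 2 and 3. In PTX4-OE replicates 1, 2 and 3 they held 8.42, 9.06 and 9.58%. Replicate 3 was highest and replicate 1 lowest with either construct, and the ranges of the constructs overlapped. The share was 8.91% ± 1.02 (SD, n = 3) in EV and 9.02% ± 0.580 (SD, n = 3) in PTX4-OE, a difference of 0.114 percentage points, which is smaller than either spread. The counting error of a single share is far smaller, with a 95% Wilson interval of 8.15 to 8.17% for EV replicate 1, and it covers counting error only. Corrected for length, these genes made up 26.3, 27.3 and 30.9% of TPM in EV and 27.6, 28.3 and 30.8% in PTX4-OE, and they filled 64 to 68 of the top 100 places by TPM in each library. In bulk RNA a change in RNA per cell and a change in the cells that contribute it cannot be told apart.

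Levels of single genes were compared with each other on the TPM scale. The median of the mean TPM over the 83 genes that passed the filter on low counts was 3147 TPM, 3025 for the 51 RPL genes and 3602 for the 32 RPS genes, and 73 of the 83 were above 1000 TPM. RPS18, a protein of the small subunit's head, was the highest, with 11196, 12039 and 13654 TPM in EV and 11637, 12255 and 13482 TPM in PTX4-OE. RPS27, a zinc-binding protein of the small subunit, followed with 9396, 9939 and 10565 TPM in EV and 9730, 10734 and 12370 TPM in PTX4-OE. Both genes were lowest in EV replicate 1, and their construct ranges overlapped. RPS20 (7355 to 8195 TPM over the 6 libraries), RPL30 (6150 to 7621 TPM) and RPLP2 (6202 to 6999 TPM), the last a protein of the flexible stalk that recruits translation factors, came next. The ranges of RPS18 and RPS27 overlap, as do those of RPS20, RPL30 and RPLP2 in turn, while every library of RPS27 lies above every library of RPS20. Within each library, however, RPS18 was above RPS27 and RPS20 above RPL30. RPL30 and RPLP2 changed order between libraries.

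The low end was made up of paralogues. RPS27L had 38.5 to 53.2 TPM, RPL39L 56.9 to 84.1 TPM, RPL26L1 65.6 to 111 TPM and RPL22L1 113 to 144 TPM. RPL3L, the striated-muscle form of RPL3, had between 0 and 7.57 expected counts per library, and its highest level was 0.14 TPM. RPL10L, the testis form of RPL10, had 0 counts in all 6 libraries, which allows up to 3 counts, or 0.0795 to 0.101 CPM (counts scaled to a common library size) per library. These 2 genes did not pass the filter and were not tested.

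Among the other members that were singled out for their roles, RPL3, an early-assembling protein at the peptidyl transferase centre, had 3252 to 3866 TPM over the 6 libraries. RPL10, added late in large-subunit assembly, had 1837 to 2388 TPM. RPL5 and RPL11, which with an rRNA form a particle that binds MDM2 when assembly fails, had 2281 to 3190 TPM and 2204 to 2619 TPM. RPLP0 and RPLP1, the base and a partner of the stalk, had 3546 to 4096 TPM and 1428 to 1598 TPM. On the small subunit RPS6, the substrate of the S6 kinases, had 5121 to 6568 TPM, and RPS14 and RPS19, the genes tied to the anaemias of del(5q) and Diamond-Blackfan, had 3428 to 4130 TPM and 3388 to 3476 TPM. RPSA, which is also known as a laminin receptor, had 2655 to 2914 TPM, and RPS27A, made as a fusion with ubiquitin, had 2063 to 2244 TPM. Of these genes RPS19 and RPS27A varied least, with an SD of log2 normalised CPM over the 6 libraries of 0.042 and 0.036, against a median of 0.092 over the 83 genes.

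**Figure D1:**
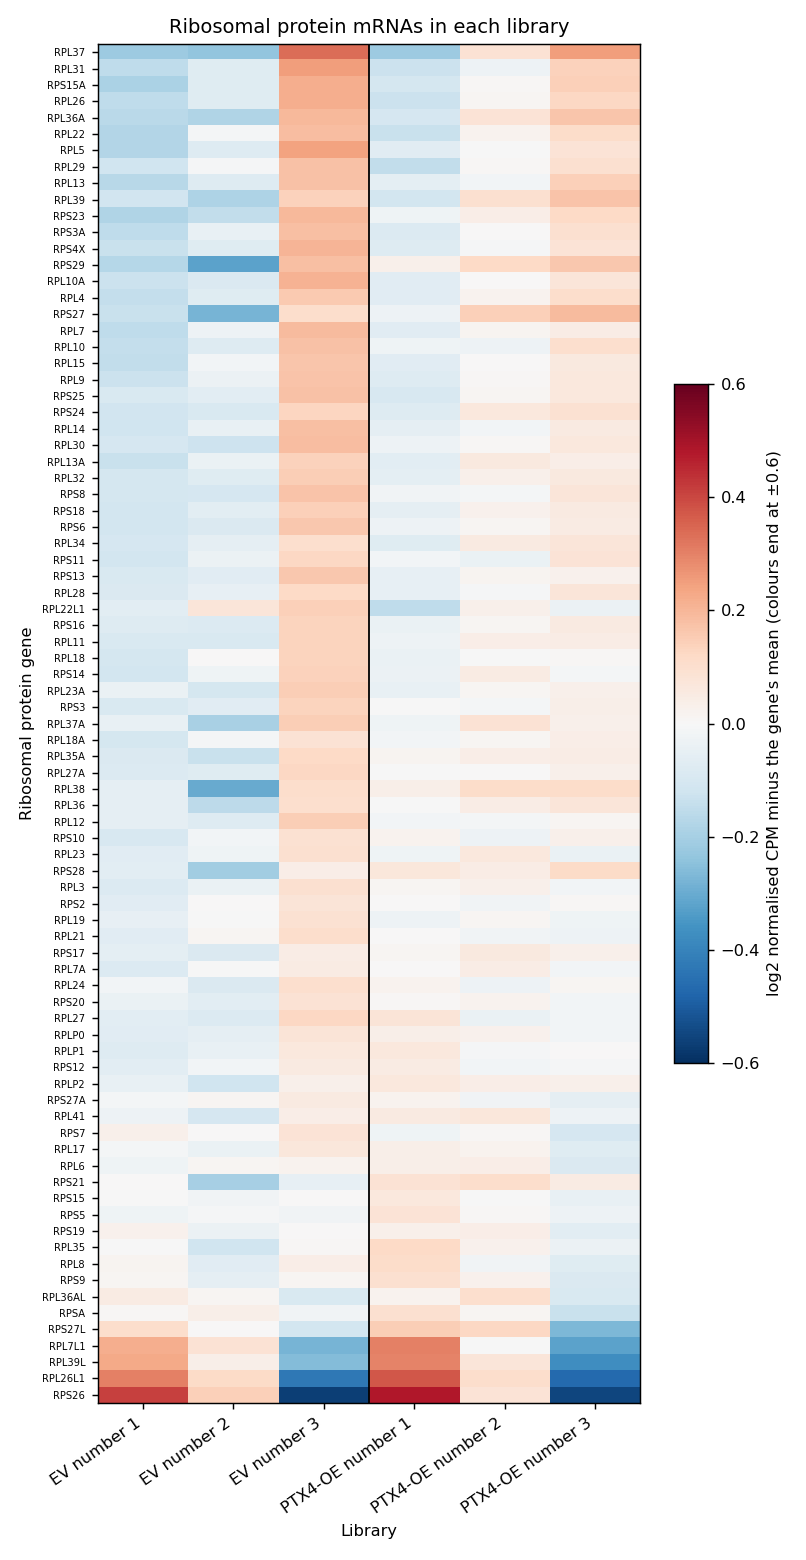
Heat map of the 83 tested ribosomal protein genes (rows) in the 6 libraries (columns), as log2 normalised CPM minus the gene's mean over the libraries, with blue below and red above the mean and the colour scale ending at 0.6. By TPM, a scale other than that of the map, EV replicate 1 is the lowest library for 54 genes and EV replicate 3 the highest for 50. These numbers were not counted in normalised CPM. In the map RPS26, RPL26L1, RPL39L and RPL7L1 at the foot run the other way.

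Differences between libraries were taken from counts as CPM with TMM scaling (normalised CPM), because for some genes the ratio of count to TPM, and so the length assumed in the TPM values, differed between libraries. Relative to the median member of the same library, the ratio had a highest-to-lowest spread of 1.03 for the median gene but above 1.2 for 7 genes, the largest being 1.40 for RPS29 and 1.38 for RPL37. Values on the 2 scales are therefore both given where they part.

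The comparison the study was designed for, PTX4-OE against EV, found no ribosomal protein gene changed. Without regard to replicate number, edgeR called 0 of 83 genes higher and 0 lower at an adjusted p under 0.05, against 0.00567% and 0.0% of the 17624 genes tested, and 0 of the 83 had an unadjusted p under 0.05. DESeq2 also called 0 of the 83. With limma-voom 0 genes of any kind were called, not even PTX4, so its 0 for these genes adds nothing to the result. The median log2 fold change was 0.014 for the ribosomal protein genes and 0.0077 for all genes, and 54 of the 83 were above 0, against 53.0% of all genes. The sign of that median rested on single libraries: it was -0.030 without EV replicate 1, -0.012 without EV replicate 2, 0.083 without EV replicate 3 and -0.0010 without PTX4-OE replicate 3. The single changes ran from -0.10 to 0.20, and the 95% confidence interval lay within a 2-fold change for all 83 genes and within 1.5-fold for 81.

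Over all genes same-numbered libraries deviated together, so the fit was repeated with replicate number as a block. Over the 83 genes alone the deviations of the libraries numbered 1, 2 and 3 correlated at 0.897, 0.238 and 0.966, and for number 2 this was less than for EV replicate 2 with PTX4-OE replicate 1 (0.658) or EV replicate 1 with PTX4-OE replicate 2 (0.431). With the block edgeR again called 0 of 83 genes in each direction, against 0.0284% of all genes higher and 0.233% lower, and the smallest adjusted p was 0.312. The median log2 fold change was 0.015, against 0.0053 for all genes, with a range of -0.10 to 0.21. That median was -0.011, -0.0065 and 0.056 without replicate 1, 2 and 3. Every one of the 83 intervals lay within 1.5-fold, the lowest bound being -0.23 and the highest 0.35. Of the 83 genes 5 had an unadjusted p under 0.05, all with a positive change, where 8.79% of all genes had one. Large and small subunit genes had the same median in this fit, 0.015 for each.

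**Figure D2:**
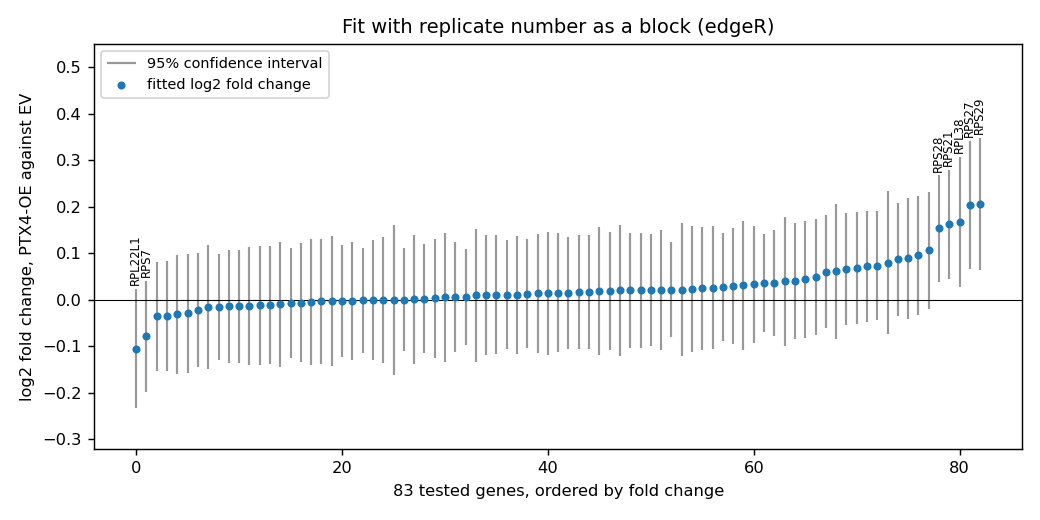
Fitted log2 fold change of PTX4-OE against EV with replicate number as a block (points) and 95% confidence interval (bars) for the 83 tested ribosomal protein genes, ordered by fold change. The points run from -0.10 for RPL22L1 to 0.21 for RPS29, and 5 intervals, those of RPS27, RPS29, RPS21, RPS28 and RPL38, lie above 0 before adjustment for multiple tests.

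The genes with the smallest p in the upward direction were RPS27, RPS29, RPS21, RPS28 and RPL38. RPS27 had 516, 467 and 610 normalised CPM in EV and 555, 626 and 647 in PTX4-OE. PTX4-OE was above EV in each pair, by 0.11, 0.42 and 0.085 on the log2 scale, although the construct ranges overlapped. Its fold change was 0.20 (SE 0.065), with an edgeR adjusted p of 0.312. RPS29, like RPS27 a zinc-binding small-subunit protein, had 133, 120 and 170 normalised CPM in EV and 153, 163 and 168 in PTX4-OE. EV replicate 3 was the highest library and EV replicate 2 the lowest, and the pairs differed by 0.20, 0.44 and -0.015. The fold change was 0.21 (SE 0.067), with an edgeR adjusted p of 0.328.

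RPS21, a small-subunit protein needed late in its assembly, had 364, 316 and 350 normalised CPM in EV and 385, 390 and 376 in PTX4-OE, and RPS28 had 455, 412 and 489 in EV and 499, 491 and 515 in PTX4-OE. These were the 2 genes whose constructs did not overlap (2.41% of the 83, against 4.12% of all genes). Their fold changes were 0.16 (SE 0.055) and 0.15 (SE 0.054), with edgeR adjusted p of 0.350 and 0.375. RPL38, a large-subunit protein known from a mouse skeletal patterning mutant, had 293, 247 and 327 normalised CPM in EV and 313, 329 and 328 in PTX4-OE. Its constructs overlapped, and its fold change was 0.17 (SE 0.066) with an edgeR adjusted p of 0.454.

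All 5 of these genes were lowest in EV replicate 2, and pair 2 gave the largest difference for each, from 0.25 to 0.44. The TPM scale did not show the same step for most of them. In TPM the pair 2 difference was 0.11 for RPS27, 0.072 for RPS29 and 0.018 for RPS21, and it stayed at 0.28 for RPS28 and 0.32 for RPL38. In pair 3 the TPM difference was 0.23 for RPS27, 0.23 for RPS29 and 0.24 for RPS21, against 0.085, -0.015 and 0.10 in normalised CPM. It was 0.12 for RPS28 and -0.22 for RPL38, against 0.075 and 0.0046. The count per TPM, relative to the median member, was 0.139 for RPS27 in EV replicate 2 and 0.159 to 0.174 elsewhere. For RPS29 it was 0.0583 against 0.0673 to 0.0813, and for RPS21 0.154 against 0.175 to 0.189. RPL38 had its lowest ratio in EV replicate 3 (0.538), and that of RPS28 varied by 1.03-fold in all. The part of this ratio in the differences was not tested. Without replicate 2 of each construct the blocked fold changes of the 5 genes were 0.050 to 0.11. Without replicate 3, edgeR with the block called RPS27 (0.25, adjusted p = 0.0326), RPS29 (0.31, adjusted p = 0.0003868) and RPL38 (0.24, adjusted p = 0.0315) higher, and the same 3 were called with no filter on low counts.

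In the other direction RPL22L1 came first. This paralogue of RPL22 had 28.3, 31.1 and 32.6 normalised CPM in EV and 26.6, 30.2 and 28.8 in PTX4-OE. PTX4-OE was lower in all 3 pairs, with differences of -0.089, -0.042 and -0.18. RPL22L1 was the only gene of the 83 for which this held, and the share over all genes was not counted. The construct ranges overlapped. The fold change was -0.10 (SE 0.060), and the edgeR adjusted p was 0.662. RPL22L1 stood at 18.5, 21.2 and 19.6% of the TPM of RPL22 in EV and at 17.6, 18.1 and 17.4% in PTX4-OE. The next genes were RPS7, which like RPL5 and RPL11 can bind MDM2 (-0.078), RPS27A (-0.035), RPL21 (-0.035) and RPL29 (-0.031), with edgeR adjusted p above that of RPL22L1.

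Among the genes of known clinical or structural interest the blocked fold changes were close to 0. RPL5 was at 0.0052, RPL11 at 0.034, RPL3 at 0.020, RPL10 at 0.030, RPS6 at 0.022, RPS14 at -0.0002, RPS19 at 0.0061 and RPSA at -0.016. The stalk genes RPLP0, RPLP1 and RPLP2 were at 0.032, 0.041 and 0.087. The interval of RPL5, as an example, ran from -0.13 to 0.14.

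The pairs did not move alike. In pair 1 PTX4-OE was above EV for 77 of the 83 genes, against 54.7% of all genes, with a median of 0.070. In pair 2 it was above for 71, against 48.9% of all genes, with a median of 0.074. In pair 3 it was above for 7 and below for 76, where 49.9% of all genes were above, and the median was -0.088. In normalised CPM the third pair thus had the opposite sign to the others, and the SD of the 3 medians was 0.093. On the TPM scale some genes changed sign in pair 3. RPS29 was at 0.23 (-0.015 in normalised CPM) and RPLP2 at 0.082 (-0.0036). Others stayed below 0 in TPM, such as RPL5 (-0.11) and RPL37 (-0.40), and the genes on each side were not counted on that scale.

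**Figure D3:**
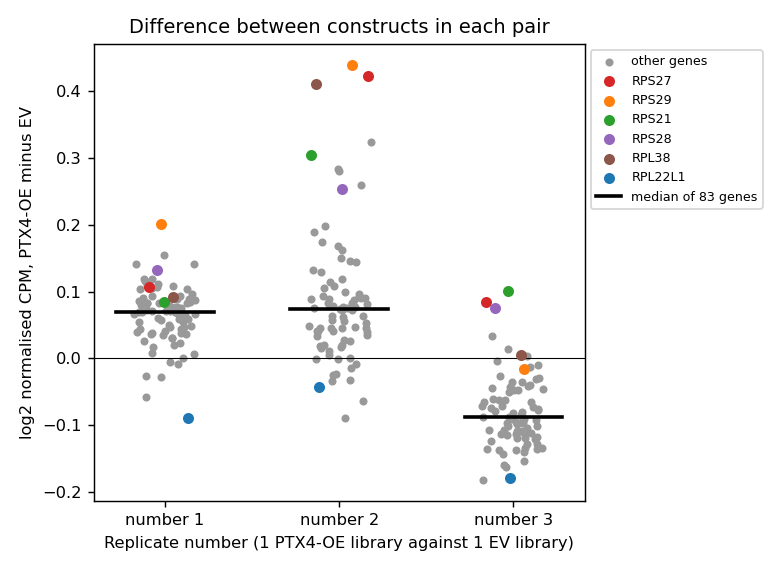
Difference in log2 normalised CPM between the PTX4-OE and the EV library of each replicate number, 1 point per ribosomal protein gene (83 genes), with the median as a bar. Medians are 0.070, 0.074 and -0.088, and RPS29, RPS27 and RPL38 are the highest points in number 2.

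The libraries numbered 3 and 1 differed in more genes than the constructs did. For number 2 minus number 1 the median of the 83 genes was 0.024 in EV and 0.041 in PTX4-OE, and no calls were made. The difference between numbers 3 and 1 was fitted over both constructs, with construct in the model. It covers 2 libraries per number, and 4548 genes of all kinds were called higher and 5073 lower, so a call is common here. Of the ribosomal protein genes 27 of 83 (32.5%) were higher in number 3, against 25.8% of all genes, which is close to the background. Lower calls were fewer, 5 of 83 (6.02%) against 28.8% of all genes. The median log2 fold change was 0.13, against 0.026 for all genes. Since the numbers were taken to pair the libraries from these same data, the size of this difference is not independent of that choice.

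The 5 genes lower in number 3 were RPS26, RPL26L1, RPL39L, RPL7L1 and RPS27L. RPS26 lies at the mRNA exit channel and can leave mature ribosomes under stress, and its row is ENSG00000197728.11 at chr12:56041351-56044697 (GRCh38). It had 183, 152 and 93.3 normalised CPM in EV and 192, 146 and 94.2 in PTX4-OE. The libraries numbered 3 were the lowest and those numbered 1 the highest in each construct, and the paired libraries lay close together. The fold change was -1.001 (SE 0.060), with an edgeR adjusted p of 7.09e-09, and in TPM the level went from 672 to 355 in EV and from 704 to 374 in PTX4-OE. RPS26 has many near-identical pseudogenes, which held 1.64% of the summed counts, and its counts were not whole numbers in any library. With the pseudogene counts added its fold change was -0.99.

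RPL26L1, a paralogue of RPL26, had 36.4, 31.9 and 21.9 normalised CPM in EV and 38.2, 31.7 and 21.4 in PTX4-OE. The libraries numbered 3 were again the lowest with both constructs, and the fold change was -0.79 (SE 0.073, edgeR adjusted p = 3.289e-07). RPL39L, best known from the testis and from some cancer cells, had 27.98, 24.56 and 19.99 normalised CPM in EV and 29.4, 25.2 and 18.5 in PTX4-OE. The change was -0.58 (SE 0.079, edgeR adjusted p = 1.639e-05). RPL7L1, a relative of RPL7 with a role in large-subunit assembly, had 590, 539 and 417 normalised CPM in EV and 625, 506 and 406 in PTX4-OE, and changed by -0.56 (SE 0.066, edgeR adjusted p = 3.608e-06). For these genes too, no library of number 3 reached a library of number 1. RPS27L, the paralogue of RPS27, had 19.2, 17.9 and 16.6 normalised CPM in EV and 19.8, 19.4 and 14.8 in PTX4-OE. Its change of -0.32 (SE 0.092, edgeR adjusted p = 0.0086) was no longer called without PTX4-OE replicate 1 (-0.27, adjusted p = 0.0835) or PTX4-OE replicate 3 (-0.17, adjusted p = 0.316), nor by DESeq2 (adjusted p = 0.0700).

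The partners of these paralogues, RPL26, RPL7, RPL39 and RPS27, were themselves called higher in number 3, at 0.31, 0.23, 0.27 and 0.23. As a percentage of the TPM of RPL26, RPL26L1 stood at 3.52, 2.81 and 1.65 in EV and at 3.66, 2.76 and 1.70 in PTX4-OE. RPL7L1 stood at 4.64, 3.79 and 2.61% of RPL7 in EV and at 4.64, 3.59 and 2.77% in PTX4-OE. RPL39L stood at 1.70, 1.42 and 1.08% of RPL39 in EV and at 1.84, 1.38 and 0.943% in PTX4-OE. In all 3 the share was highest in number 1 and lowest in number 3 of either construct, and the constructs were close at each number. RPL36AL went from 14.9 and 15.1% of RPL36A to 10.6% in EV and from 14.0 and 12.8% to 10.9% in PTX4-OE, although its own change, -0.13, was not called (edgeR adjusted p = 0.0800). RPS27L stood at 0.513, 0.463 and 0.364% of RPS27 in EV and at 0.516, 0.496 and 0.332% in PTX4-OE. RPL22L1 showed no such order, and its own value for number 3 against 1 was 0.16 (edgeR adjusted p = 0.0760).

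The largest increases in number 3 were those of RPL37, RPL31, RPS15A, RPL26 and RPL36A. RPL37, a zinc-binding protein of the large subunit that can also bind MDM2, had 1049, 1035 and 1537 normalised CPM in EV and 1049, 1296 and 1449 in PTX4-OE. The fold change was 0.51 (SE 0.088, edgeR adjusted p = 1.543e-04), and on the log2(TPM + 1) scale it was 0.57 with a limma adjusted p of 0.0728. Its count per TPM differed between libraries by up to 1.38-fold, so its level is less certain than that of the others. RPL31, which lies at the exit of the nascent peptide tunnel, had 809, 855 and 1070 normalised CPM in EV and 824, 882 and 990 in PTX4-OE. The change was 0.33 (SE 0.070, edgeR adjusted p = 7.885e-04). RPS15A, a small-subunit protein, had 488, 531 and 649 normalised CPM in EV and 517, 559 and 616 in PTX4-OE, with a change of 0.33 (SE 0.067, edgeR adjusted p = 5.822e-04).

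RPL26, another protein of the tunnel exit, had 581, 615 and 752 normalised CPM in EV and 591, 651 and 703 in PTX4-OE, a change of 0.31 (SE 0.068, edgeR adjusted p = 0.0011). RPL36A had 507, 500 and 648 normalised CPM in EV and 528, 599 and 635 in PTX4-OE, a change of 0.31 (SE 0.073, edgeR adjusted p = 0.0020). A readthrough gene that contains RPL36A, RPL36A-HNRNPH2, was listed at 0 to 50.1 TPM, so reads may have been divided between them. In all 5 genes both libraries of number 3 were above both of number 1. The other 22 called genes rose by 0.17 to 0.30 and included RPL5 (0.29) and RPL10 (0.22), while RPL3 (0.076), RPL11 (0.15), RPS6 (0.18), RPS14 (0.14), RPS19 (-0.059), RPS27A (-0.0062), RPSA (-0.13) and the stalk genes (0.022 to 0.048) were not called.

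The count of genes higher in number 3 rested on single libraries. Without EV replicate 3 only RPL31, RPS15A and RPL37 were called higher, and without PTX4-OE replicate 3 the number rose to 46 and the median to 0.25. RPL31 and RPS15A were called higher, and RPS26, RPL26L1, RPL39L and RPL7L1 lower, in the fit as reported and all 15 alternatives to it. Leaving out the mitochondrial genes and PTX4, whose shares differed between libraries, gave 41 genes higher.

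Within EV the median of number 3 minus number 1 was 0.20, with 73 of 83 genes above 0, where 51.2% of all genes were. Within PTX4-OE the median was 0.055, with 53 above 0, where 51.3% of all genes were. The value was larger in EV for 80 of the 83 genes. This is the comparison of pair 1 with pair 3 in another form and no separate result. The share over all genes was not counted, and with 1 library per number and construct this difference was not tested. In number 3 both constructs were above number 1 for 53 genes (63.9%, against 43.3% of all genes) and below it for 10 (12.05%, against 40.8%). The remaining 20 genes had opposite signs, with a value no larger than 0.092 in one of the constructs. Across the 83 genes the 2 differences had a Pearson r of 0.966 and a Spearman rho of 0.921. Across 17495 genes above 0 in every library these were 0.735 and 0.792. The genes share libraries and are no replicates, and without the 5 lower genes r was 0.886 and rho 0.904 over 78.

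**Figure D4:**
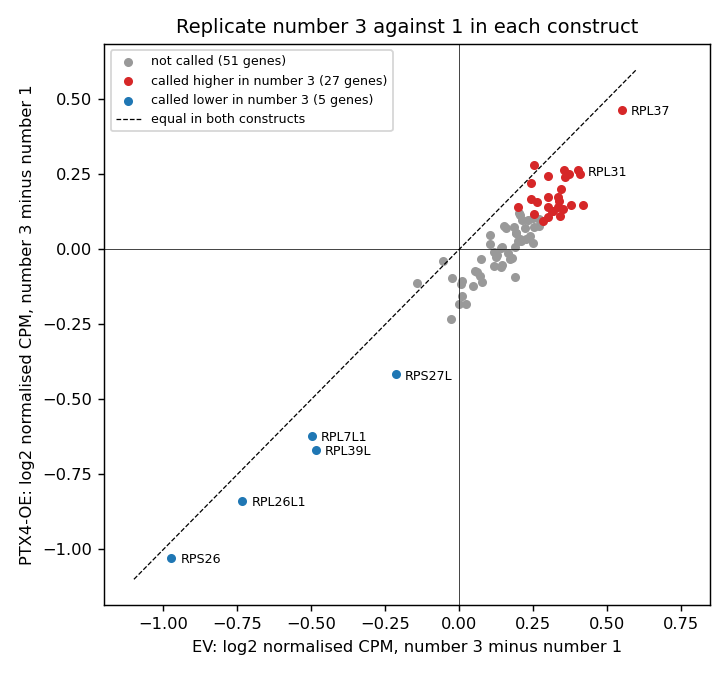
Log2 normalised CPM of replicate number 3 minus number 1 in EV (horizontal) and in PTX4-OE (vertical), 1 point per ribosomal protein gene, red for the 27 genes called higher and blue for the 5 called lower. Nearly all points lie below the dashed line of equal differences, 80 of 83, which restates pair 1 against pair 3. The 5 lower genes lie below 0 in both constructs.

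Of the genes with an entry in the promoter table, the start pattern was present in 15 of the 22 called higher in number 3, in 0 of the 4 called lower (RPS26, RPL7L1, RPL26L1 and RPS27L, whose starts are printed above) and in 32 of the 41 not called. RPL39L has no entry. With so few lower genes, 3 of them paralogues with separate promoters, these are counts and no test.

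Other genes of the translation machinery were read in the same fits. Of 21 translation factor and other mRNAs listed as TOP mRNAs 11 were higher and 2 lower in number 3, with a median of 0.18. Of all genes 25.8% were higher and 28.8% lower. They include EEF1A1, the elongation factor that brings aminoacyl-tRNA to the ribosome, at 0.42, EEF2 at 0.26, TPT1 at 0.36 and EIF3E at 0.38. All 4 were called higher by edgeR, and they were chosen after their values were seen.

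Most factors that build ribosomes were lower in number 3, where 25.8% of all genes were higher and 28.8% lower. Of 54 assembly factors tested 0 were higher and 49 lower, with a median of -0.55. They include BOP1 (-0.87), the snoRNP methyltransferase FBL (-0.68), nucleolin, NCL (-0.60), and NOP56 (-0.46). RNA polymerase I and its factors had 2 of 15 higher and 10 lower, with POLR1A, its largest subunit, at -0.64. Of 28 translation initiation factors 3 were higher and 22 lower, with EIF4E, the cap-binding protein, at -0.57 and EIF3A at 0.21. Of 81 mitochondrial ribosomal proteins 1 was higher and 72 lower, with a median of -0.50. Among 23 regulators of ribosome output 5 were higher and 12 lower, with MYC at -0.62, EIF4EBP1 at -0.51, LARP1 at -0.28, MTOR at -0.52 and MDM4 at 0.65. Of 13 mitochondrially encoded mRNAs 7 were higher and 0 lower, and of 8 monocytic markers 0 were higher and 6 lower. The part of these in the values of the ribosomal protein genes was not tested.

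**Figure D5:**
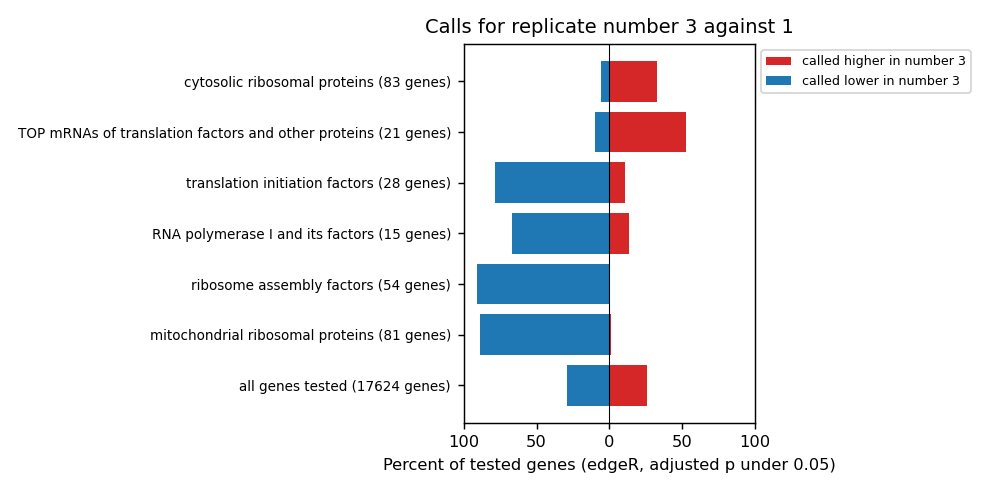
Percent of the tested genes of each list that edgeR called higher (right, red) or lower (left, blue) in replicate number 3 against number 1, with the cytosolic ribosomal proteins at the top and all 17624 genes at the foot. Cytosolic ribosomal proteins have 27 higher and 5 lower calls of 83, mitochondrial ribosomal proteins 1 and 72 of 81, and assembly factors 0 and 49 of 54.

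For PTX4-OE against EV no gene of these lists was called without the block. With the block edgeR called only MT-ND1, the mitochondrial complex I subunit (-0.52, adjusted p = 0.0387), and the myeloid genes CSF1R (-0.30, adjusted p = 0.0387) and MPO (-0.54, adjusted p = 0.0080), each lower in PTX4-OE. Blocked medians were 0.0016 for the TOP mRNAs, -0.0012 for initiation factors, 0.0002 for RNA polymerase I, -0.0031 for assembly factors and -0.0008 for mitochondrial ribosomal proteins, beside 0.015 for the cytosolic ones. They were 0.049 for the regulators of ribosome output (18 of 23 above 0), -0.045 for the monocytic markers and -0.32 for the mitochondrially encoded mRNAs, of which 0 of 13 were above 0 and 10 had an unadjusted p under 0.05. The summed TPM of these 13 mRNAs was 64574, 118751 and 114111 in PTX4-OE replicates 1, 2 and 3. In EV it was 106991, 131320 and 118494, so PTX4-OE replicate 1 lay far below the rest and pair 3 differed little. The genes with the smallest p in the lists without a call were IPO7 (0.091), EIF3A (0.12), TAF1B (-0.14), SBDS (0.10), MDM4 (-0.19), MRPS26 (0.17) and PECAM1 (-0.24), with edgeR adjusted p from 0.0894 to 0.662.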

How the data were processed

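Poly(A)-enriched RNA of 6 THP-1 libraries was sequenced as read pairs, per the labels' protocols. The authors deposited expected counts per gene, which the submitters' processing notes tie to STAR and featureCounts on GRCh38 (FastQC 0.11.5). Of the deposited expected counts 7.94% are not whole, and the sources used here do not give the step that split reads, the annotation release or the strand setting. The deposited TPM values were scaled by the authors for length and to a common sum. The deposited FPKM table was not used. Of the 85 genes 41 had whole counts in every library and 29 in none, so reads of overlapping or near-identical genes may be split. The 1587 pseudogenes named after 77 of the genes held 0.360 to 0.406% of their counts, and over 1% for RPS2 (8.15%), RPS26 and RPL23A (1.10%).

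Names and coordinates came from GENCODE release 44 and starts from RefSeq (GRCh38.p14). The 38 X and Y pseudoautosomal pairs were summed. Rounded expected counts entered edgeR 4.0.16 under R 4.3.3 (filterByExpr, TMM, quasi-likelihood F test, Benjamini-Hochberg adjusted p under 0.05 over 17624 genes). The procedure was also run on simulated data. Their spread between libraries was set far below that found without the block, so they do not show the power of that fit. Each standard error was derived from the F statistic and the log2 fold change. Alternatives used DESeq2 1.42.0, limma 3.58.1, other filters, scalings and units, and each library left out. Python 3.11.15 with pandas 2.3.3 and matplotlib 3.10.9 made the tables and plots.

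The numbers come from the labels. Deviations from the group means correlated at 0.632, 0.130 and 0.699 for numbers 1, 2 and 3 and at -0.643 to 0.117 for unlike numbers, so the numbers were taken to pair the libraries, although number 2 was close to the limit of 0.1. No libraries agreed within sampling noise (chi-square per degree of freedom at least 6.15). The biological coefficient of variation was 0.217 without and 0.0551 with the block. The labels call the replicates biological, and p-values measure the spread between these libraries only. The intervals of fold changes use the edgeR standard error and so measure that same spread. Wilson intervals of shares and floors cover counting error only, and reads carry no molecular identifiers.

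The members, lists and tests were chosen with earlier results of these data known. Genes were named where they were called between constructs, had the 5 smallest p per direction with the block, the 5 highest or lowest TPM, a paralogue or partner, the 5 largest called changes per direction between numbers, or a known role in a set of 12, plus the gene of smallest p or the called genes of each list. List genes outside that rule (EEF1A1, EEF2, TPT1, EIF3E, BOP1, FBL, NCL, NOP56, POLR1A, EIF4E, MYC, EIF4EBP1, LARP1, MTOR) were chosen after their values were seen. A list of ribosomal proteins with other names is not reported here.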

Additional observations from a re-analysis of the deposited data

How the results depend on the processing

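For PTX4-OE against EV without the block, no alternative called a ribosomal protein gene, and the counts over all genes moved by few: 2 lower with DESeq2, 1 lower with no filter on low counts, 2 lower on the log2(TPM + 0.1) scale, and 0 higher with limma-voom or without the mitochondrial genes and PTX4. With the replicate block, where 5 genes of all kinds were higher and 41 lower, leaving out replicate 1, 2 or 3 gave 30, 8 and 41 higher and 59, 15 and 167 lower, and 3 ribosomal protein genes were higher without replicate 3. With the replicate block, limma-voom gave 14 higher, the fit with no filter 106 higher and 190 lower with 3 ribosomal protein genes higher, log2(TPM + 1) gave 1 higher and 0 lower, and log2(TPM + 0.1) gave 1 higher and 3 lower. The block changed no other call of a ribosomal protein gene. When libraries were left out RPL21 ranged from -0.085 to 0.0095, positive without EV replicate 3 and also, with the block, without replicate 3 (0.0050). RPL29 ranged from -0.11 to 0.053 and was positive without EV replicate 3 or PTX4-OE replicate 1 (0.040). For replicate number 3 against 1, DESeq2 called 3021 genes higher in place of 4548, and without the mitochondrial genes and PTX4 41 ribosomal protein genes were higher. Leaving out each library gave 3 to 46 higher and a median of 0.037 without EV replicate 3 to 0.25 without PTX4-OE replicate 3. The difference in the share of counts between constructs ranged from -0.26 to 0.69 percentage points when a library was left out. The cause of these moves was not tested. For single named genes under the other settings, 183 values for PTX4-OE against EV and 143 for replicate number kept their direction and side of the threshold. The median of PTX4-OE against EV ranged from -0.030 to 0.083 when a library was left out, with a change of sign for 3 of them. Scaling over other genes and the fits that combine the block with another choice were chosen after seeing the data. Depth is no limit for genes above 1000 TPM, while RPL3L and RPL10L were too low to test.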
